A study of Homo sapiens with 8 samples.

Results

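The genes described here control the sterol-regulated transcription factors SREBP and the uptake and intracellular transport of cholesterol. They are the 9 genes SCAP, INSIG1, INSIG2, MBTPS1, MBTPS2, SREBF1, SREBF2, STARD4 and MYLIP, taken by gene name from 55765 names in the deposited tables. Each had 1 row per table, and all 9 were among the 14650 genes tested, whose mean over the libraries reached 1 TPM. TPM is a transcript abundance scaled for transcript length and to the same total in every library. The libraries were made from isolated total RNA of the human leukaemia lines NB4 and Kasumi-1. NB4 is an acute promyelocytic leukaemia line that carries PML-RARA. Kasumi-1 is a line of acute myeloid leukaemia in which RUNX1 is fused to RUNX1T1. For each line, 1 library was made from untreated cells and 1 each from cells given 40 uM chlorprothixene, a thioxanthene antipsychotic, for 6, 12 and 24 h. The medium of all cultures held 10% serum, a source of lipoproteins. No vehicle and no untreated culture at the later times is named in the sources used here, so the effect of the drug and that of time in culture cannot be told apart.

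SREBP precursors sit in the membrane of the endoplasmic reticulum bound to SCAP. When sterols are plentiful, the INSIG proteins hold SCAP there; when sterols fall, SCAP carries the precursors to the Golgi apparatus, where the site-1 and site-2 proteases cut them and free the part that enters the nucleus. SREBF2 encodes the form best known for sterol synthesis and lipoprotein uptake, and SREBF1 the forms best known for fatty acid synthesis. INSIG1 is itself an SREBP target and closes a feedback loop.

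No condition had a second library, so no value carries a spread between cultures. Between 13358 and 14582 genes reached 1 TPM in a library, and mitochondrially encoded genes took 5.04% to 17.12% of the TPM, the highest share being in Kasumi-1 at 24 h. Marker levels matched the labelled lines except for ELANE. RUNX1T1, a gene of the Kasumi-1 fusion, stood at 58.0 to 92.5 TPM in Kasumi-1 and at 0 to 0.0476 TPM in NB4. SPI1, a myeloid transcription factor, stood at 132.4 to 327.1 TPM over all libraries. ELANE, a myeloid marker listed for both lines, stood at 415.5 to 1495 TPM in Kasumi-1 but at 0.00945 to 0.759 TPM in NB4. Of 11 markers of erythroid, lymphoid, epithelial, fibroblast and endothelial cells, 5 to 7 were listed at 0 in a library and their summed level was 18.1 to 30.5 TPM. EPCAM, at 15.7 to 29.7 TPM, made up most of it in both lines, and its part in the results was not tested. In such bulk RNA, fewer cells of a type and less RNA per cell cannot be told apart.

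Promoters of 4 genes are shown because these genes had the largest differences in NB4 or, for SREBF2, a known SREBP site. Each runs from 250 bases before to 50 bases after the RefSeq start of the gene (build GRCh38.p14, whereas the expression tables use hg19), 5′ to 3′ on the strand of the gene. SREBF2 is at chr22:41832855-41833154 on the plus strand, INSIG1 at chr7:155297628-155297927 on the plus strand, STARD4 at chr5:111512486-111512785 on the minus strand and MYLIP at chr6:16128836-16129135 on the plus strand. Capitals mark the matches to the motifs described after the sequences.
SREBF2: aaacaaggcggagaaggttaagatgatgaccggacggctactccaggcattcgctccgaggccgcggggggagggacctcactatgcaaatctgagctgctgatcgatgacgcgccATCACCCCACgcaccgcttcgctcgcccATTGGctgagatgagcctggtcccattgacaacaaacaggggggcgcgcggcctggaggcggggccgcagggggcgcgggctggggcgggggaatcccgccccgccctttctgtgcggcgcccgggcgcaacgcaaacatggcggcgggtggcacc
INSIG1: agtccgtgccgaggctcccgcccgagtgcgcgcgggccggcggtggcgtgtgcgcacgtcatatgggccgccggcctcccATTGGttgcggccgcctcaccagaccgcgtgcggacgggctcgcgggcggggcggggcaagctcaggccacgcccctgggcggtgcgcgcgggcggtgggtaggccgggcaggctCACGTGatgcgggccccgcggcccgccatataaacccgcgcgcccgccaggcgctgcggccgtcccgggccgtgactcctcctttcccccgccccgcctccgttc
STARD4: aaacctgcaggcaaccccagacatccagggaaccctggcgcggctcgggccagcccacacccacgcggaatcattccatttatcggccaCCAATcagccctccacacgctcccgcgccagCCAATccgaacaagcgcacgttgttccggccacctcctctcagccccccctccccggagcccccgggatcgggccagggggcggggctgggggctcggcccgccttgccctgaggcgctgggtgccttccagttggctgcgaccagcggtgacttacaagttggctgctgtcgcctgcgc
MYLIP: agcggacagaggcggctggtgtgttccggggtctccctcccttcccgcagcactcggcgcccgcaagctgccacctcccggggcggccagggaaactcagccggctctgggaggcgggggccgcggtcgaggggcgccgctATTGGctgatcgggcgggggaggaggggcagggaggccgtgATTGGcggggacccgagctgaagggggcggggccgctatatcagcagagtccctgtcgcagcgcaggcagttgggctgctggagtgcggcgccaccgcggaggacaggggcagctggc

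The motifs were searched on both strands. They were the sterol regulatory element as TCACNCCAC, its full form (the longest run of capitals in the SREBF2 sequence), the E-box CACGTG, which SREBP can also bind, the CCAAT box, bound by the factor NF-Y that often works beside SREBP, and an element of the sterol receptor LXR, a direct repeat of AGGTCA with 4 open bases between. Among the 9 genes, the sterol regulatory element was found in the SREBF2 window alone, in its full form at -134 to -125 from the start, a match that contains the shorter one. The short form was present in 1.13% of 35116 promoter windows of the same length and the full form in 0.05%. The SREBF2 window also held a CCAAT box at -106 to -102. INSIG1 had an E-box at -55 to -50 and a CCAAT box at -170 to -166, and SCAP had an E-box at -58 to -53. STARD4 had CCAAT boxes at -161 to -157 and -130 to -126, and MYLIP at -109 to -105 and -68 to -64. An E-box was present in 7.26% of all windows and a CCAAT box in 34.6%. The windows of INSIG2, MBTPS1, MBTPS2 and SREBF1 held none of these motifs, and the LXR element, found in 0.02% of all windows, was in none of the 9 genes. A match is a description of letters and no match says only that they are not in this window.

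In NB4 the retention and sterol transport genes INSIG1 and STARD4 rose and MYLIP fell, each in the same direction at every time, while SCAP, the proteases and SREBF1 lay between 0.585 and 1.32 of their untreated level. In Kasumi-1 INSIG1, INSIG2, STARD4 and SREBF2 were also above untreated at all 3 times, by less. Ratios and folds printed beside levels are plain ratios of TPM to the line's own untreated library. Log2 changes, differences and all counts of genes at least 2-fold higher or lower are on the log2(TPM + 1) scale, which understates the change of low genes.

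**Figure D1:**
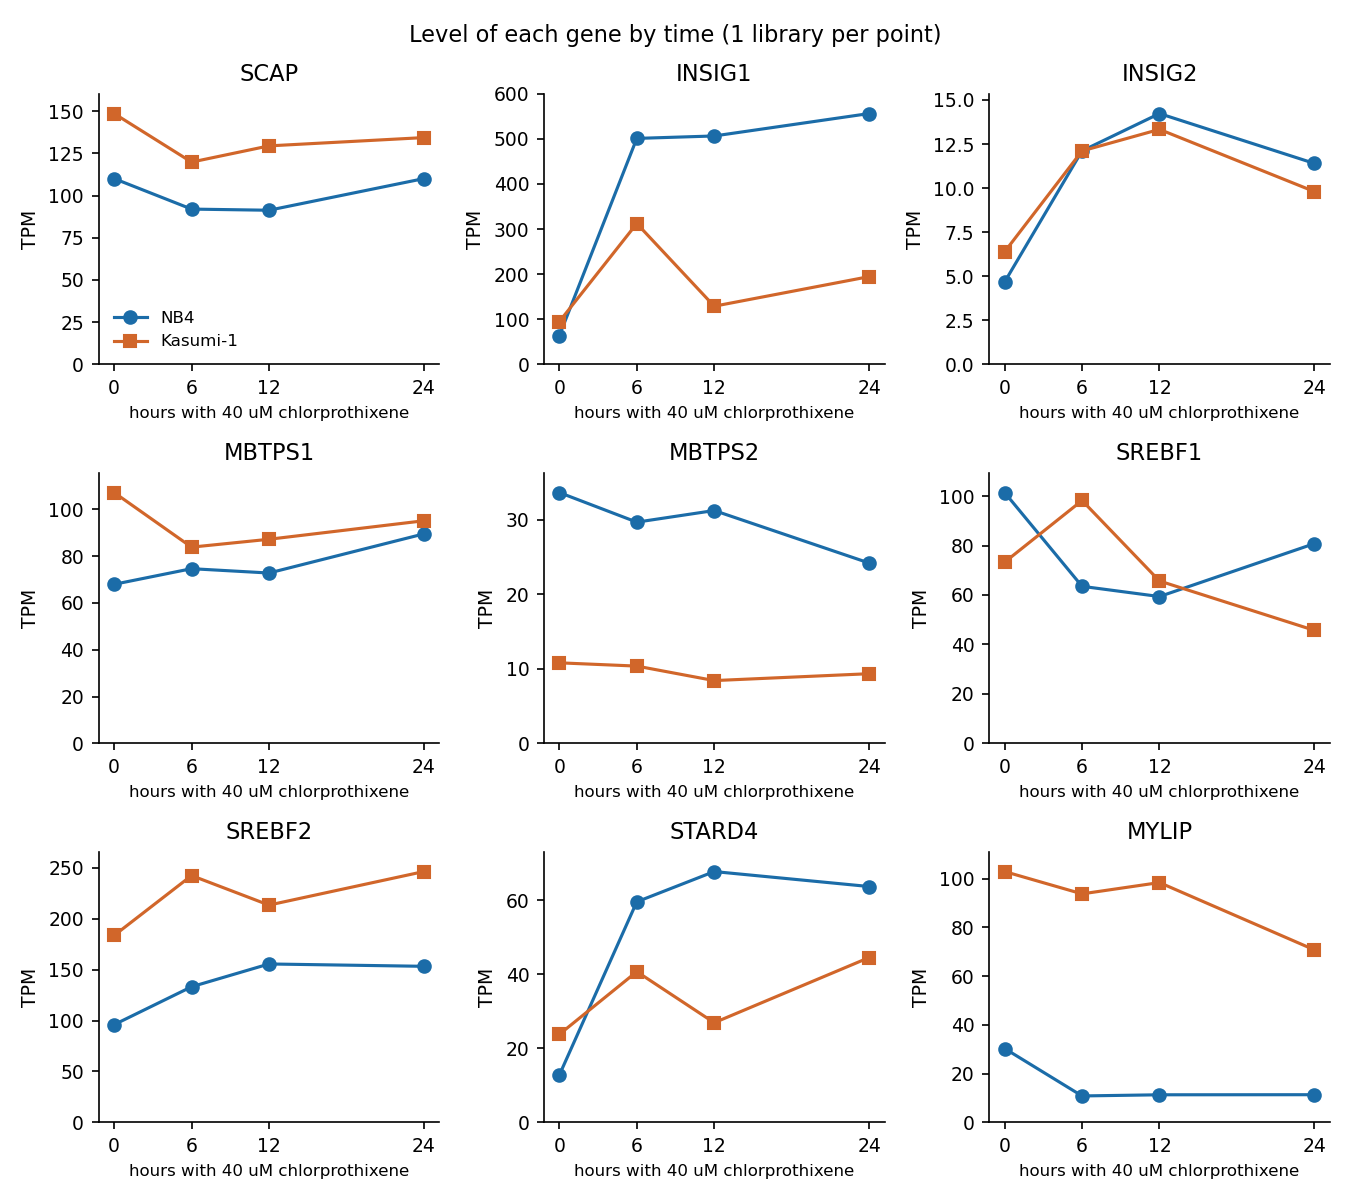
Level in TPM of each of the 9 genes (y axis, from 0, with its own scale for each gene) against hours with 40 uM chlorprothixene (x axis) in NB4 (circles) and Kasumi-1 (squares), 1 library per point. INSIG1 reached 556 TPM in NB4, and MYLIP lay at 10.8 to 11.3 TPM in treated NB4 against 30.3 TPM untreated.

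SCAP, the escort of SREBP (chromosome 3, 47455203 to 47518616, minus strand, hg19), stood at 110.0, 92.0, 91.3 and 110.0 TPM in NB4, untreated and at 6, 12 and 24 h, and at 148.6, 119.8, 129.4 and 134.3 TPM in Kasumi-1. Its treated levels were at or below the untreated level of their line, and at the lowest 0.806 of it. INSIG1 (chromosome 7, 155089486 to 155101945, plus strand), which retains SCAP when sterols are plentiful, had NB4 levels of 63.9, 501, 506 and 556 TPM in the same order, or 7.84-, 7.92- and 8.70-fold. In Kasumi-1 it went from 94.9 to 312.3, 128.9 and 194.5 TPM, or 3.29-, 1.36- and 2.05-fold. All 6 treated levels exceeded both untreated ones, and the NB4 levels held a plateau from 6 h while the Kasumi-1 level was highest at 6 h. In NB4 at 6 h its change lay above 99.8% of the genes tested, and in Kasumi-1 above 98.0% at 6 h and 83.8% at 12 h.

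INSIG2 (chromosome 2, 118846028 to 118868573, plus strand), the other retention protein, was the least abundant of the 9 in both untreated libraries. The NB4 libraries had 4.68, 12.1, 14.2 and 11.4 TPM of it, the Kasumi-1 libraries 6.39, 12.1, 13.3 and 9.81 TPM. Its course peaked at 12 h in both lines, and every treated level exceeded both untreated ones. With a mean coverage of 3.58 to 11.2 reads per base, its values rest on fewer reads than those of the other 8, whose lowest coverage was 14.7.

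The ratio of retention to escort transcripts was higher in every treated library than in the untreated one of its line. Summed INSIG1 and INSIG2 stood at 0.623 of the SCAP level in untreated NB4 and at 5.58, 5.70 and 5.16 times that level at 6, 12 and 24 h. In Kasumi-1 the ratio went from 0.682 to 2.71, 1.10 and 1.52. INSIG1 exceeded INSIG2 by 9.67 to 48.8 times in all 8 libraries. These are ratios of transcript levels in single libraries and carry no test.

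**Figure D2:**
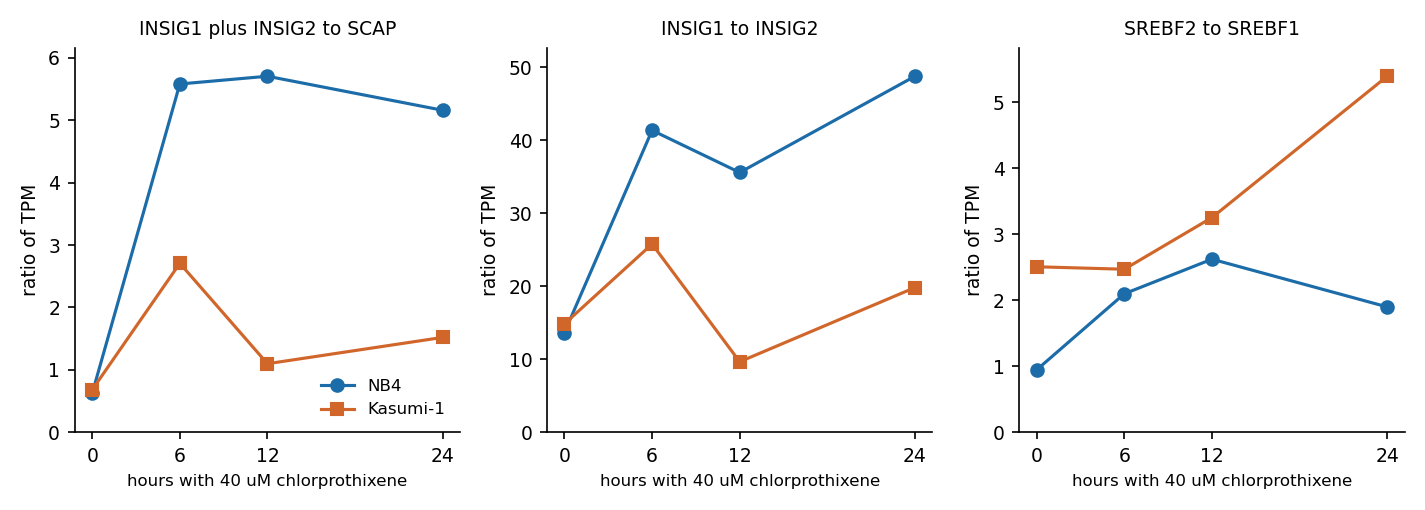
Ratios of TPM (y axes, from 0) against hours with 40 uM chlorprothixene in NB4 (circles) and Kasumi-1 (squares), 1 library per point: the INSIG genes to SCAP, INSIG1 to INSIG2, and SREBF2 to SREBF1. The first ratio was 0.623 and 0.682 in the untreated libraries and between 5.16 and 5.70 in treated NB4.

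Neither protease gene passed the test in either line. MBTPS1, which encodes the site-1 protease (chromosome 16, 84087368 to 84150511, minus strand), stood at 67.9, 74.6, 72.8 and 89.5 TPM in NB4 and at 107.1, 83.8, 87.2 and 95.1 TPM in Kasumi-1. Its level was above untreated at all 3 times in NB4 and below untreated at all 3 times in Kasumi-1. MBTPS2, which encodes the site-2 protease (chromosome X, 21857754 to 21903542, plus strand), stood at 33.6, 29.7, 31.2 and 24.2 TPM in NB4 and at 10.8, 10.4, 8.42 and 9.34 TPM in Kasumi-1. The 2 lines did not overlap, and every treated level was below the untreated level of its line, at 0.719 to 0.960 of it.

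Of the factors themselves, SREBF2 (chromosome 22, 42229109 to 42303312, plus strand), whose promoter carries the full sterol regulatory element shown, stood at 96.0, 133.2, 155.6 and 153.3 TPM in NB4. In Kasumi-1 it stood at 183.7, 242.5, 213.5 and 246.5 TPM. Every treated level was above the untreated level of its line, by 1.39- to 1.62-fold in NB4 and 1.16- to 1.34-fold in Kasumi-1. SREBF1 (chromosome 17, 17713713 to 17740325, minus strand) had NB4 levels of 101.4, 63.5, 59.4 and 80.8 TPM. In Kasumi-1 it went from 73.3 to 98.2 TPM at 6 h and then stood at 65.7 and 45.7 TPM. The 3 treated NB4 levels were below the untreated one, whereas Kasumi-1 lay on both sides of it. The ratio of SREBF2 to SREBF1 was 0.947 in untreated NB4 and 2.10, 2.62 and 1.90 after treatment, and 2.51, 2.47, 3.25 and 5.39 in Kasumi-1.

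For SREBF1, read coverage and TPM gave changes of different size. Its coverage over FPKM was 1.41 in untreated NB4 and 1.15, 0.832 and 0.849 in the treated NB4 libraries, while the median of that ratio over genes went from 4.80 to 4.64, 3.70 and 4.06. From coverage scaled to the library, a measure added after these values were seen, its log2 changes in NB4 were -0.88, -1.10 and -0.78, against -0.67, -0.76 and -0.33 from TPM. In Kasumi-1 they were 0.22, -0.24 and -0.78, against 0.42, -0.16 and -0.67. The files give levels per gene, so its isoforms were not analysed here.

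STARD4, a soluble carrier that moves sterol between membranes (chromosome 5, 110831731 to 110848288, minus strand), had NB4 levels of 12.8, 59.6, 67.7 and 63.7 TPM, or 4.65-, 5.29- and 4.97-fold. In Kasumi-1 it went from 23.8 to 40.7, 26.9 and 44.5 TPM, or 1.71-, 1.13- and 1.87-fold. All 6 treated levels exceeded both untreated ones, and as for INSIG1 the 12 h library was the lowest of the treated Kasumi-1 libraries. MYLIP (chromosome 6, 16129356 to 16148479, plus strand) encodes a ubiquitin ligase, also called IDOL, that is switched on by LXR and marks lipoprotein receptors for degradation. Its NB4 levels were 30.3, 10.8, 11.3 and 11.3 TPM, the treated ones at 0.358 to 0.374 of the untreated level. In Kasumi-1 it stood at 102.9, 93.7, 98.4 and 70.8 TPM, each treated level below the untreated one. At 12 h in Kasumi-1 the ratio was 0.956, and 51.0% of the genes tested had a lower change. In FPKM that level was 42.45 against 42.42 untreated. The NB4 level was as low at 6 h as later, and only 0.669% of the genes tested had a lower change at 6 h.

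The order of levels differed between untreated and treated NB4. SCAP was the most abundant of the 9 in untreated NB4 and INSIG1 the fifth, whereas INSIG1 led at all 3 treated times. In Kasumi-1 SREBF2 led except at 6 h, when INSIG1 did. With 1 library per point, neighbours such as SCAP and MBTPS1 in treated NB4 cannot be compared with a spread.

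Within a line, treated and untreated levels were compared with limma, with the 3 times standing in for repeats and the spread pooled over both lines. The lone untreated libraries are thereby assumed to vary like the treated ones, and p-values measure the change against the spread over times, not over cultures. In NB4, 2 of the 9 genes rose, where 0.621% of all genes did, and 1 fell, where 0.177% did; at an unadjusted p under 0.05, 4 were higher, where 8.3% of all genes were, and 1 lower, where 6.86% were. INSIG1 rose by 3.01 on the log2 scale (SE 0.40, limma adjusted p = 0.0224) and STARD4 by 2.23 (SE 0.27, limma adjusted p = 0.0177). MYLIP fell by 1.36 (SE 0.21, limma adjusted p = 0.0428). INSIG2 had a difference of 1.25 (SE 0.25, limma adjusted p = 0.0844) and SREBF2 of 0.61 (SE 0.17, limma adjusted p = 0.162). SREBF1 differed by -0.58 (SE 0.37), MBTPS2 by -0.25 (SE 0.22), SCAP by -0.17 (SE 0.17) and MBTPS1 by 0.21 (SE 0.18), with limma adjusted p between 0.516 and 0.696. Without the 24 h library of NB4, MBTPS2 had -0.14 and MBTPS1 0.12.

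These 3 calls did not withstand every alternative. That of INSIG1 was lost when the NB4 library of 12 h (limma adjusted p = 0.0960) or 24 h (0.0862) or the Kasumi-1 library of 24 h (0.0513) was left out, with no filter on low values (0.0623) and from scaled coverage (0.0656). That of STARD4 was lost when the NB4 library of 12 h (0.0923) or 24 h (0.0641) was left out. That of MYLIP was lost without any 1 of the treated NB4 libraries (0.0688 to 0.158), without Kasumi-1 at 6 h (0.0635) or 12 h (0.103) and without the intensity trend (0.0632). Over these alternatives the size ran from 2.96 to 3.03 for INSIG1, from 2.11 to 2.30 for STARD4 and from -1.43 to -1.28 for MYLIP.

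**Figure D3:**
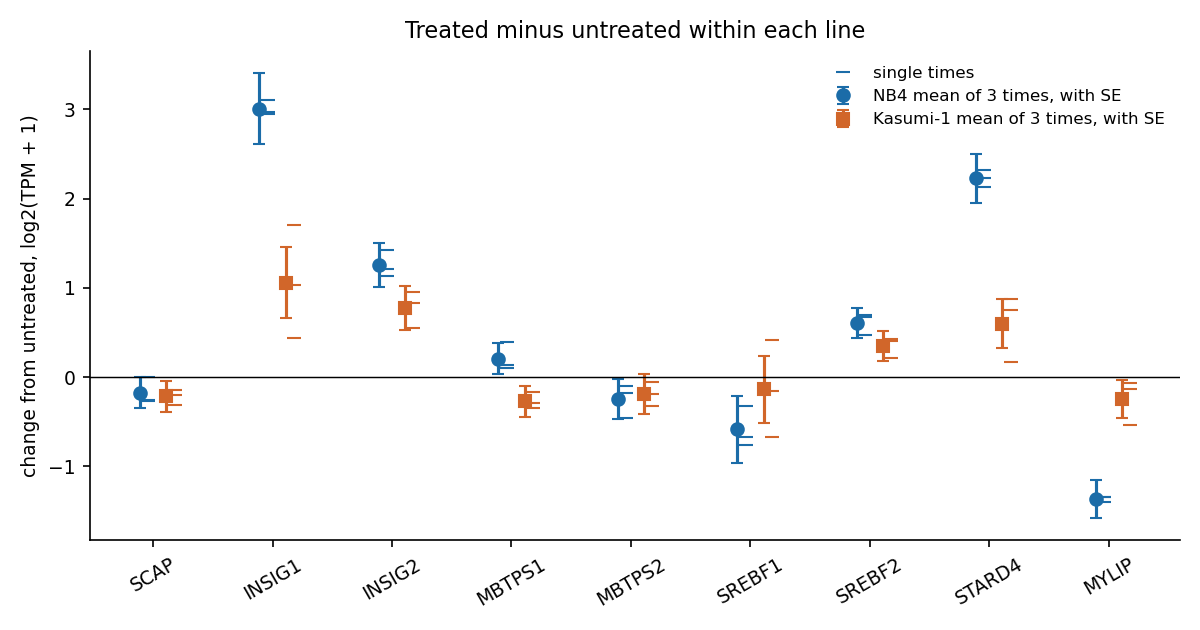
Treated minus untreated difference of log2(TPM + 1) (y axis) for each of the 9 genes in NB4 (circles) and Kasumi-1 (squares): symbols are means over 3 times with the standard error of the limma fit, and dashes are the single times. INSIG1, at 3.01 and 1.06, and STARD4, at 2.23 and 0.60, lay highest in NB4, and MYLIP, at -1.36 and -0.24, lowest.

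In Kasumi-1, 0 of the 9 genes passed in either direction, where 0.205% of all genes rose and 0.109% fell; at an unadjusted p under 0.05 in limma, 2 were higher, where 8.18% of all genes were, and 0 lower, where 12% were. These 2 were INSIG1, with a difference of 1.06 (SE 0.40, limma adjusted p = 0.200), and INSIG2, with 0.78 (SE 0.25, limma adjusted p = 0.149). The differences were 0.60 (SE 0.27) for STARD4, 0.35 (SE 0.17) for SREBF2 and between -0.27 and -0.14 for the other 5 genes. Without the 24 h library of Kasumi-1, MYLIP had -0.0986 in place of -0.24 and SREBF1 0.13 in place of -0.14, and without the 6 h library SREBF1 had -0.41. Without the 12 h library MBTPS2 had -0.12 in place of -0.19. Without a test, INSIG1, INSIG2 and STARD4 were at least 2-fold higher at all 3 times in NB4, where 2.03% of all genes were, and MYLIP at least 2-fold lower, where 0.703% were. In Kasumi-1 these counts were 0 higher and 0 lower, where 1.88% and 0.655% of all genes were, and without the 12 h library INSIG1 was the 1 gene counted as higher. At each single NB4 time the same count was 3 higher and 1 lower, where 3.06%, 5.6% and 6.51% of all genes were higher at 6, 12 and 24 h and 2.27%, 2.37% and 2.88% lower. In Kasumi-1 the counts were 1, 0 and 1 higher, where 6.44%, 4.85% and 5.11% of all genes were, and 0 lower, where 2.99%, 3.52% and 3.88% were. By plain TPM ratio the count at 12 h was 1, INSIG2 at 2.09-fold.

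The response that both lines shared was tested with cell line as an additive term, so that p-values measure how alike the lines moved. By limma 0 of the 9 genes passed in either direction, where 0.0273% of all genes rose and 0% fell. At an unadjusted p under 0.05 INSIG1, INSIG2, SREBF2 and STARD4 were higher, where 9.3% of all genes were, and MYLIP lower, where 11.1% were. INSIG2 came nearest, with a mean log2 difference of 1.02 (SE 0.18, limma adjusted p = 0.0815) and higher levels in 6 of 6 treated libraries. When the 3 times served as repeats it passed (limma adjusted p = 0.0498). INSIG1 had 2.03 (SE 0.44, limma adjusted p = 0.101), STARD4 1.41 (SE 0.36, limma adjusted p = 0.119), SREBF2 0.48 (SE 0.14, limma adjusted p = 0.139) and MYLIP -0.80 (SE 0.26, limma adjusted p = 0.165). By TPM each was of 1 sign in 6 of 6 treated libraries. By FPKM this did not hold for MYLIP, which in Kasumi-1 at 12 h stood at 42.45 against 42.42 untreated. Without the untreated library of a line, the fit returns the response of the other line alone. For INSIG1, STARD4 and MYLIP the means were then 1.06, 0.60 and -0.24 without untreated NB4, the Kasumi-1 values given above. Without untreated Kasumi-1 they were 3.01, 2.23 and -1.36, the NB4 values. The median of the 9 was -0.03, as was that of all genes tested.

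Whether the response differed between the lines was tested as the product of line and treatment. By limma 0 of the 9 passed, where 0.041% of all genes had a higher and 0.0887% a lower response in Kasumi-1 than in NB4; at an unadjusted p under 0.05, 1 was higher, where 4.22% of all genes were, and 2 lower, where 6.37% were. The difference was -1.95 (SE 0.57, limma adjusted p = 0.326) for INSIG1, -1.63 (SE 0.39, limma adjusted p = 0.263) for STARD4 and 1.12 (SE 0.30, limma adjusted p = 0.315) for MYLIP. A difference of response between the lines is thus not shown for these 3 genes after adjustment over all genes. For INSIG2 the difference was -0.48 (SE 0.35) and for SREBF2 -0.26 (SE 0.24).

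From 6 to 24 h, by limma 0 of the 9 passed, where 0% of all genes did in either direction, and 0 had an unadjusted p under 0.05, where 4.05% of all genes were higher and 3.82% lower. Differences lay between -0.37 (SREBF1, SE 0.33) and 0.22 (MBTPS1, SE 0.18). Leaving out each library in turn gave -0.87 to 0.13 for SREBF1 and 0.0840 to 0.355 for MBTPS1. Between these times SREBF1 went up in NB4 (63.5 and 80.8 TPM) and down in Kasumi-1 (98.2 and 45.7 TPM).

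The lines also differed in level. The test compared the lines at matched times, so p-values measure the difference against its spread over the conditions, not over cultures. Over all 4 conditions of a line, 3 of the 9 genes were higher in Kasumi-1 than in NB4 and 1 lower, where 27.8% and 27.5% of all genes were, and the same counts held at an unadjusted p under 0.05, where 30.6% and 30.4% of all genes were. MYLIP was higher by 2.57 on the log2 scale (SE 0.23, limma adjusted p = 0.000118), SREBF2 by 0.73 (SE 0.12, limma adjusted p = 0.00200) and SCAP by 0.40 (SE 0.10, limma adjusted p = 0.0138). MBTPS2 was lower, with a log2 difference of -1.51 (SE 0.14, limma adjusted p = 0.000157). For these 4 genes no level of 1 line reached into the range of the other, which held with Kasumi-1 higher for 24.5% of all genes and lower for 22.8%. MYLIP lay between 10.8 and 30.3 TPM in NB4 and between 70.8 and 102.9 TPM in Kasumi-1. The SCAP call was lost without the 6 or 12 h library of either line (limma adjusted p between 0.0547 and 0.0723). INSIG1 differed by -0.90 (SE 0.38, limma adjusted p = 0.0821) and STARD4 by -0.38 (SE 0.31, limma adjusted p = 0.343), and both depended on single libraries. Without either untreated library the values were -1.39 and -0.78, past the limma threshold, and without either 12 h library -0.54 (limma adjusted p = 0.284) and -0.0678 (limma adjusted p = 0.873).

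Other genes of the pathway were read from lists, chosen with earlier results of these data known. Of 20 sterol synthesis enzymes, 14 rose and 0 fell in NB4 by limma, 0 passed in Kasumi-1 (6 higher at an unadjusted p under 0.05) and 0 in the shared test (14 higher at an unadjusted p under 0.05). Their median difference was 2.06 for NB4, 0.44 for Kasumi-1, against 0 and -0.05 over all genes tested. SC5D, a late enzyme, rose by 2.57 in NB4 (SE 0.26, limma adjusted p = 0.00927) and HMGCS1, an early one, by 3.02 (SE 0.50, limma adjusted p = 0.0482). PMVK and EBP, 2 enzymes of the same route, had NB4 differences of -0.08 and -0.09 and Kasumi-1 differences of -0.20 and -0.35. In NB4 the differences of INSIG1 and STARD4 lay within the range of the enzymes, and that of SREBF2 above only 3 of them. These 3 were PMVK, EBP and CYP51A1, the last with at most 0.277 TPM in NB4, so that its difference compares levels near 0.

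Of 10 fatty acid synthesis enzymes, ME1 and FADS2 rose in NB4, and 0 passed in Kasumi-1 (4 higher at an unadjusted p under 0.05). ME1, which supplies NADPH, stood in NB4 at 15.8, 59.4, 75.8 and 62.5 TPM (log2 1.99, SE 0.24, limma adjusted p = 0.0166), and FADS2, a desaturase named after its values were seen, rose by 1.73 (SE 0.27, limma adjusted p = 0.0411). ACSS2, which makes acetyl-CoA, had a difference of 1.95 without passing (limma adjusted p = 0.0824). ACLY and ACACA had NB4 differences of 0.50 and -0.18. The list's median was 1.44 for NB4 and 0.52 for Kasumi-1, beside -0.58 and -0.14 for SREBF1.

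Of 10 genes of the COPII coat, the vesicle coat that carries SCAP and SREBP out of the endoplasmic reticulum, 0 passed in NB4, in Kasumi-1 or in the shared test (at an unadjusted p under 0.05 in limma, 1 was lower in NB4, 2 were higher in Kasumi-1 and 4 in the shared test). The 4 NB4 libraries had SEC24D at 29.3, 49.2, 60.5 and 46.2 TPM and the 4 Kasumi-1 libraries at 31.1, 83.3, 102.8 and 43.4 TPM. SAR1A had a shared difference of 0.645 (SE 0.13, limma adjusted p = 0.0881). SAR1B and SEC23B had the lowest shared differences, -0.29 and 0.02. Of 12 proteins that act on or bind INSIG and SCAP, RNF145 rose in Kasumi-1, with levels of 20.0, 80.1, 75.8 and 58.0 TPM (log2 1.77, SE 0.25, limma adjusted p = 0.0443), and 0 passed in NB4 (1 lower at an unadjusted p under 0.05). RNF145 is a ubiquitin ligase that is switched on by LXR and acts on SCAP. AUP1 had a shared difference of 0.16, ERLIN1 of -0.50 and TMEM33 of -0.65, none past the limma threshold.

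**Figure D4:**
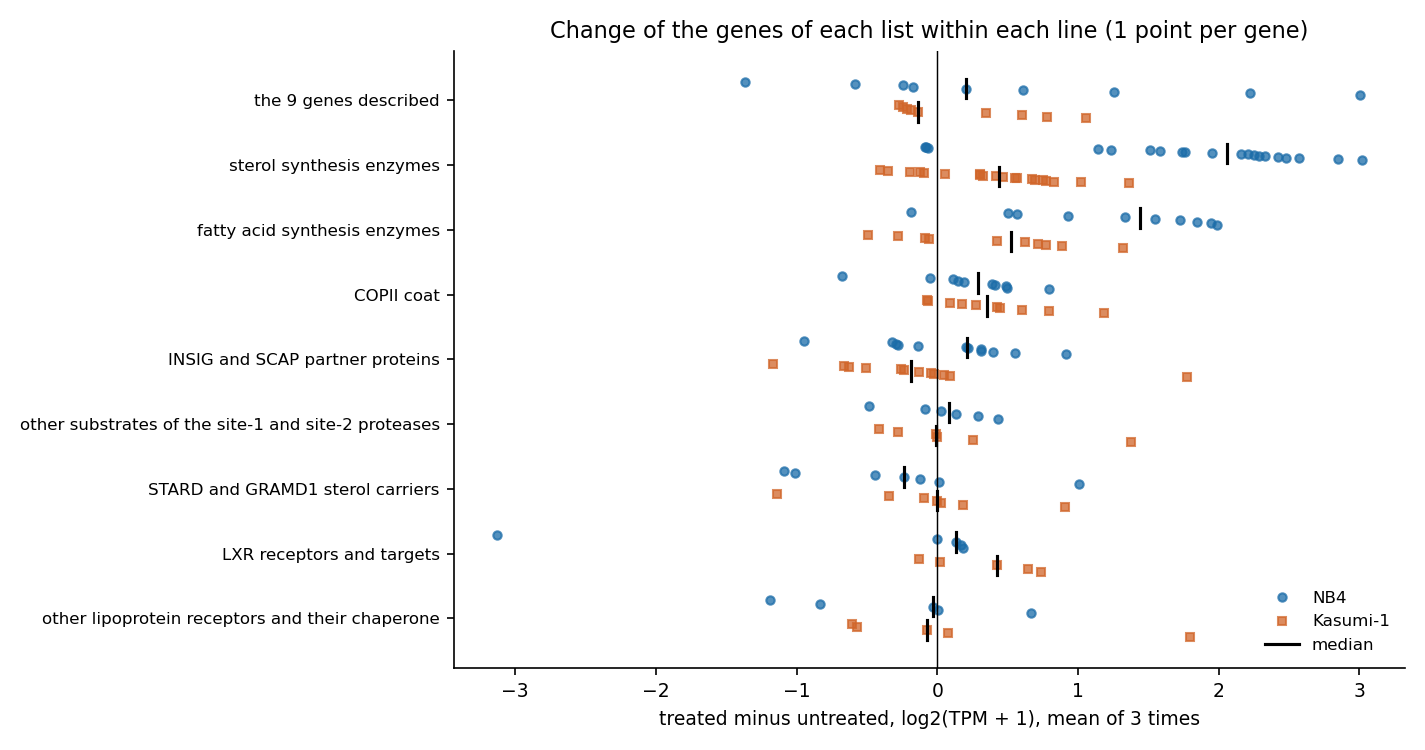
Mean treated minus untreated difference of log2(TPM + 1) (x axis) for each gene of each list in NB4 (circles) and Kasumi-1 (squares), 1 point per gene, with the list median as a bar. The sterol synthesis enzymes had medians of 2.06 and 0.44, and ABCA1, at -3.13, was the lowest point in NB4.

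Of 5 LXR receptors and targets tested (7 listed), ABCA1, a cholesterol exporter, fell in NB4, with levels of 12.5, 0.438, 0.619 and 0.595 TPM (log2 -3.13, SE 0.23, limma adjusted p = 0.00234). In Kasumi-1 ABCA1 stood at or below 0.0280 TPM in all 4 libraries, so its response difference (3.15, SE 0.33, limma adjusted p = 0.0222) compares a fall with levels near 0. In Kasumi-1, 0 of the 5 passed (2 higher at an unadjusted p under 0.05). NR1H2, an LXR gene, and SMPDL3A had shared differences of 0.39 and 0.46 and LPCAT3 of -0.07, none past the threshold. Of 6 other substrates of the site-1 and site-2 proteases tested (7 listed), all transcription factors of the endoplasmic reticulum, 0 passed in NB4, in Kasumi-1 or in the shared test of limma, and at an unadjusted p under 0.05 the only 1 was CREB3L1, higher in Kasumi-1. Their shared differences ran from -0.38 for CREB3L4 and -0.19 for ATF6B to 0.34 for CREB3 and 0.64 for CREB3L1.

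Of 7 genes of the STARD and GRAMD1 families tested (10 listed), whether or not they carry sterol, 0 passed in limma. At an unadjusted p under 0.05 in limma, STARD10 was higher and STAR lower in each line and in the shared test. STAR, the mitochondrial sterol carrier, had a shared difference of -1.07 (SE 0.21, limma adjusted p = 0.0869) and STARD10 one of 0.96 (SE 0.22, limma adjusted p = 0.104). STARD3 had a shared difference of 0.03, and GRAMD1B had NB4 levels of 7.88, 5.63, 4.18 and 1.13 TPM and was listed at 0 in Kasumi-1. Of 5 other lipoprotein receptors and their chaperone tested (6 listed), 0 passed in limma; at an unadjusted p under 0.05 VLDLR was higher and SCARB1 lower in Kasumi-1, and 0 differed in NB4. VLDLR, a target of MYLIP, had levels of 34.6, 24.4, 9.66 and 13.1 TPM over the NB4 libraries. Over the Kasumi-1 libraries its levels were 2.04, 14.9, 11.6 and 4.88 TPM. LRP8, also a target of MYLIP, had a shared difference of 0.30, SCARB1 of -0.30 and SORL1 of -0.70.

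Genes with the most similar levels were named by Pearson's r of log2(TPM + 1) over the 8 libraries, among the 10949 genes whose mean reached 5 TPM. The points share a line, so r takes in the gap in level between the lines as well as the course over treatment. A high r therefore does not by itself show a similar response, and the values are a description. For INSIG1 they were the sterol enzyme DHCR7 (r = 0.984), REEP3 (0.968) and STARD4 (0.963), and for STARD4 the sterol enzymes LSS (0.993), MSMO1 (0.982) and DHCR7 (0.980). SREBF2 was most like FADS1, a fatty acid desaturase (0.996), ATN1 (0.986) and ZBTB34 (0.986). INSIG2 was most like SPPL2A (0.980), OSTM1 (0.973) and RAB11A (0.968). SREBF1 had the lowest likeness of the 9, with LINC00467 (0.910), CORO7 (0.893) and DDN (0.882). The genes most like MYLIP (NAAA, TSPO and PGM1), MBTPS2 (ZNF770, PRSS12 and PRKAA1) and SCAP (DGCR2, ABCC10 and CCDC106) had r between 0.981 and 0.999. MBTPS1 was most like NUDT5 (0.975), TRMT61B (0.961) and DNAJC25-GNG10 (0.935). Among the 9 themselves, INSIG1 and STARD4 had r = 0.963, INSIG2 and STARD4 0.814, INSIG1 and INSIG2 0.786, and SREBF1 and SREBF2 -0.40.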

How the data were processed

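Per the labels' protocols, total RNA was isolated on columns with a DNase step, and sequencing libraries followed the Illumina TruSeq RNA kit. Per the submitters' processing notes, the authors used HISAT2, StringTie and hg19; further settings and strand were not given in the sources used here. The deposited TPM values sum to 1000000 per library. The deposited FPKM values served for an alternative, and the deposited coverage, a signal in mean reads per base, described depth.

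Libraries were grouped by line and time, and rows of 1 name were summed. Tests used log2(TPM + 1) of 14650 genes in limma 3.58.1 (R 4.3.3) with eBayes trend, all two-sided; a call was a Benjamini-Hochberg adjusted p under 0.05 over all genes. The shared response (mean of 3 times minus untreated), 24 h minus 6 h and the line difference came from line plus time, with 3 residual degrees of freedom. The within-line responses and their difference came from line, treatment and their product, with 4. For the shared and NB4 responses, the script was run on simulated data with planted changes and independent noise. Those data had no line difference and no time course, so they do not test whether times can stand in for repeats. Other tools were Python 3.11.15, pandas 2.3.3, numpy 2.4.6 and matplotlib 3.10.9. The 9 genes and the lists were chosen with earlier results of these data known. Beside the 9, named genes were the 2 highest and 2 lowest of each list by shared difference and the 3 most alike to each of the 9. All 9 matched the RefSeq promoter table by symbol.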

Additional observations from a re-analysis of the deposited data

Results flagged for a closer look

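MBTPS1, the gene of the site-1 protease, was above untreated at all 3 times in NB4 and below untreated at all 3 times in Kasumi-1, with ratios to untreated of 1.07 to 1.32 and 0.782 to 0.888. The response of Kasumi-1 minus that of NB4 was -0.48 on the log2 scale (SE 0.25), and the test of this difference did not pass (limma adjusted p = 0.548). Mitochondrially encoded genes took 8.73% of the TPM in untreated Kasumi-1 and 7.94%, 10.58% and 17.12% at 6, 12 and 24 h. A higher share lowers the TPM of other genes, and its part in the MBTPS1 levels was not tested. At 6, 12 and 24 h in Kasumi-1, 24.8%, 33.1% and 40.1% of the genes tested had a lower change than MBTPS1. Without chromosome M and the 10 most abundant genes the response difference was -0.41.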

How the results depend on the processing

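No value has a spread between cultures, since each condition is 1 library. Counts of the 9 genes called were equal or within 1.5 times in 185 recomputed counts and moved in 15. Many of the 185 were 0 in both the main and the alternative setting, where no ratio exists, so this total does not measure stability. The shared response gave 1 higher when the 3 times served as repeats. In NB4, the count higher (2) was 1 with no filter on low values and 1 from scaled coverage, which was chosen after seeing the data, and ran from 0 to 2 when each library was left out. The NB4 count lower (1) was 0 without the trend and ran from 0 to 1 when each library was left out. The line difference count lower ran from 1 to 3, and the Kasumi-1 count at least 2-fold higher at all 3 times from 0 to 1. Of single-gene values, 17 changed sign, none of which had passed the test. The response difference of SCAP was 0.016 from FPKM and 0.025 without chromosome M and the 10 most abundant genes, and ran from -0.0886 to 0.0447 when each library was left out; that of MBTPS2 ran from -0.0502 to 0.13. In the same way the shared response of MBTPS1 ran from -0.27 to 0.21, the Kasumi-1 response of SREBF1 from -0.41 to 0.13, the 24 h minus 6 h difference of INSIG1 from -0.67 to 0.14, of SREBF1 from -0.87 to 0.13 and of MYLIP from -0.46 to 0.12, and the line difference of INSIG2 from -0.10 to 0.10 and of SREBF1 from -0.38 to 0.10. The cause was not tested. Without an untreated library, the response of its line and the response difference could not be estimated. The fits of line plus time matched libraries by line and time. Cultures could not be paired, because each condition has 1 library and the labels give no replicate numbers.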

Other observations

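The microRNA genes MIR33A and MIR33B lie within SREBF2 and SREBF1. MIR33A was listed at 0 TPM in all 8 libraries and MIR33B at no more than 0.680 TPM. These are gene levels from RNA sequencing libraries, and the mature microRNAs were not measured. STARD4-AS1, which overlaps STARD4 on the opposite strand, had levels of 0.954, 0.695, 0.703 and 0.837 TPM over the NB4 libraries and 1.84, 0.825, 0.821 and 2.45 TPM over the Kasumi-1 libraries. RP5-821D11.7, which overlaps SREBF2 on the opposite strand, stood at 1.58 to 4.92 TPM, and RAI1, which overlaps SREBF1 on the opposite strand, at no more than 17.3 TPM. Without strand, reads shared by such pairs cannot be told apart. YY2 overlaps MBTPS2 on the same strand and had 3.45 to 6.21 TPM over the NB4 libraries against 0.811 to 1.45 TPM over those of Kasumi-1. CYP51A1, a sterol synthesis enzyme named after its values were seen, had at most 0.277 TPM in NB4, whereas Kasumi-1 had 95.8 to 218.5 TPM.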
